A study of Mus musculus with 24 samples.

Results

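Precursor cells in which Cre had been expressed were compared with the same cells given back full-length NFIA, before any differentiation was induced (day 0). RNA-seq values of the 3 libraries labelled Cre + NFIA were set against those of the 3 libraries labelled Cre, and a gene entered the comparison when its annotated length was at least 200 bases and its FPKM (fragments counted for a gene, per kilobase of its length and per 1000000 of the library) was at least 1 in at least 3 of these 6 libraries. This left 11270 of 24825 genes. Of these, 10630 genes were at 1 FPKM or more in all 6 libraries, 96 were tested only through Cre + NFIA and 59 only through Cre. At the edge of the rule Zfp983 was just inside, at 0.514, 0.788 and 1.23 FPKM in Cre and 1.001, 1.06 and 0.995 FPKM in Cre + NFIA, and Zfp994 just outside, at 1.33, 0.954 and 0.769 and 0.9997, 1.54 and 0.937 FPKM.

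All cells were immortalised stromal vascular fraction cells (ingSVF), the cells other than mature adipocytes of the fat pad, taken from the inguinal fat of Nfia flox/flox mice, whose Nfia exon 2 lies between loxP sites. All carried SV40 large T antigen. The ctrl cells had received an empty retroviral vector, the Cre cells a retrovirus for Cre recombinase, the Cre + NFIA cells Cre and a retrovirus for FLAG-tagged full-length NFIA, and the Cre + NFIA Δpro#3 cells (titled deltapro#3) Cre and a FLAG-tagged NFIA without a proline-rich stretch near the C terminus. Day 0 cells had received no treatment, and day 7 cells had been given, at confluence, a cocktail for thermogenic adipocytes with isobutylmethylxanthine, indomethacin, dexamethasone, insulin, T3 and rosiglitazone. Each group had 3 replicates. Nothing in the sources used here says whether these were separate cultures, so p-values measure the spread between these libraries only. NFIA was driven by a viral promoter and not by the Nfia locus, and immortalised cells stand in for primary precursors.

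NFIA, or nuclear factor I A, belongs to a family of DNA-binding factors that recognise the palindrome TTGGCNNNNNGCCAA and, more weakly, a single arm of it. In adipose tissue NFIA is known as an activator of the brown and beige fat programme and as a partner of PPARγ, the nuclear receptor that drives adipocyte differentiation. Precursors are fibroblast-like cells that make matrix, answer BMP, TGF-β, Wnt and IGF signals, and switch on C/EBP factors and then PPARγ once they are induced.

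The transgene was first checked in every library. Nfia, which lies on chromosome 4 of NCBIM37 (mm9) from 97439425 to 97868605, was at 6.81, 5.34 and 6.49 FPKM in Cre and at 74.9, 69.7 and 72.7 FPKM in Cre + NFIA. The groups were far apart, with a ratio of mean FPKM of 11.7 and a log2 change of 3.35 (SE 0.074; limma, Benjamini-Hochberg adjusted p = 9.60e-13). In ctrl Nfia was at 6.23, 6.75 and 6.43 FPKM, so ctrl and Cre overlapped. The value sums reads over the whole gene and includes transgene reads, so it checks the added NFIA and not the loss of exon 2. Log2 changes here are differences of log2(FPKM + 1), which understates the change of low genes.

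Libraries of the 6 compared samples held 7.73 to 10.7 M counted reads (M, 1000000), with means of 8.63 ± 1.33 M in Cre and 10.3 ± 0.722 M in Cre + NFIA (SD, n = 3). The cell type was checked against marker genes. All 7 stromal precursor markers were tested and summed to 3890 to 4256 FPKM in Cre and 3433 to 3589 FPKM in Cre + NFIA, led by Ly6a (Sca-1) at 1968, 1873 and 1753 and 1812, 1939 and 1880.3 FPKM. Of 9 leukocyte markers 3 had no read in any of the 6 libraries, Ptprc (CD45) reached at most 0.0228 FPKM, and the summed levels overlapped, at 8.96 to 11.1 FPKM in Cre and 10.0 to 11.6 FPKM in Cre + NFIA. Endothelial markers summed to 5.89 to 6.70 FPKM in Cre and 8.95 to 10.2 FPKM in Cre + NFIA, almost all of it from Kdr and Tek, with Cdh5 at or near 0. Mesothelial markers summed to 1.22 to 2.21 and 6.06 to 6.75 FPKM, almost all from Krt19, with Msln, Upk1b and Lrrn4 at 0. Adipocyte markers summed to 10.6 to 19.99 FPKM in Cre and 18.5 to 23.6 FPKM in Cre + NFIA. Mural (vessel wall) markers summed to 10.3 to 13.4 and 10.7 to 11.3 FPKM, and their 2 tested members passed in opposite directions. Epcam, Sox10 and Myod1, which mark epithelium, glia and muscle, were at or near 0. The sums of these 3 lists reached at most 0.366 FPKM for epithelium, 1.37 FPKM for glia and 1.13 FPKM for skeletal muscle in the 6 libraries. In these bulk samples fewer cells of a type and less RNA per cell cannot be told apart.

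With added NFIA many genes moved a little and few moved far. At a Benjamini-Hochberg adjusted p under 0.05 (limma), 1862 genes (16.5% of those tested) were higher and 1596 (14.2%) lower in Cre + NFIA, and 7812 did not pass. A gene was called when it also changed at least 3-fold on the log2(FPKM + 1) scale. This gave 40 genes called higher (0.355%) and 20 called lower (0.177%). All 60 had groups that did not overlap, as 2630 genes (23.3%) did in the higher and 2310 (20.5%) in the lower direction among all tested. Of the 40, 11 were tested only through Cre + NFIA, and of the 20, 3 only through Cre, so these had to differ. Myoc, Comp, Bmp4, Foxf2, Orm3 and Wfdc21 are among the former, and Npnt and Igf2 among the latter. The median log2 change over all tested genes was 0.02.

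**Figure D1:**
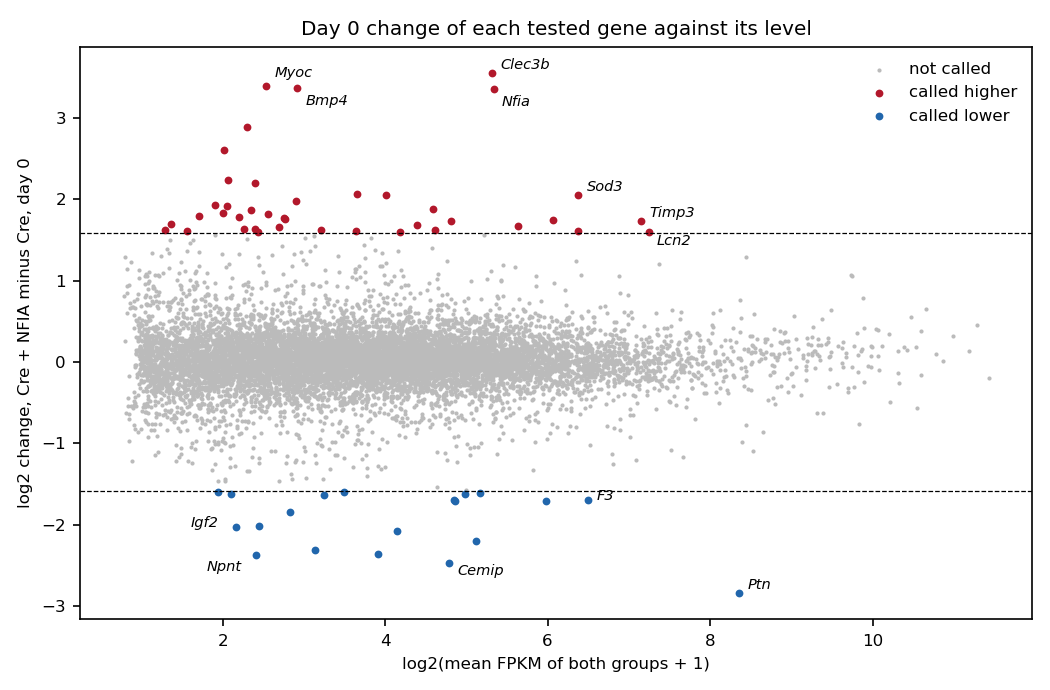
Log2 change at day 0 (Cre + NFIA minus Cre, vertical axis) of each tested gene against its level, log2 of the mean FPKM of both groups plus 1 (horizontal axis), with 1 point per gene and dashed lines at a 3-fold change. Red points are genes called higher and blue points genes called lower; Ptn stands apart among the highly expressed genes at a log2 change of -2.84, and Clec3b is at 3.55.

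The genes that rose most at day 0 were led by secreted and matrix proteins. Clec3b (tetranectin, a secreted plasminogen-binding lectin) was at 3.67, 9.26 and 4.04 FPKM in Cre and at 69.4, 78.6 and 68.5 FPKM in Cre + NFIA. Every Cre + NFIA library was above every Cre library, and the log2 change was 3.55 (SE 0.21; limma adjusted p = 2.09e-08). Myoc, which encodes the secreted glycoprotein myocilin, had no read in any of the 3 Cre libraries and was at 8.25, 10.2 and 10.3 FPKM in Cre + NFIA. Against a floor of 3 reads per library it was at least 56.4-fold higher, and its fitted change of 3.396 (adjusted p = 5.81e-11) depends on the pseudocount. Comp (cartilage oligomeric matrix protein, of the thrombospondin family) was at 0.162, 0.1599 and 0.206 FPKM in Cre and at 7.04, 8.08 and 7.96 FPKM in Cre + NFIA. This was a step from near 0 to a level shared by all 3 libraries, with a log2 change of 2.88 (SE 0.11; adjusted p = 2.57e-10). Sod3, the extracellular superoxide dismutase, was at 29.4, 29.1 and 35.9 FPKM in Cre and already well expressed, and at 136, 134 and 128 FPKM in Cre + NFIA. It rose by 2.05 (SE 0.13; adjusted p = 4.07e-08). Timp3, a matrix-bound inhibitor of metalloproteinases, was at 64.3, 66.1 and 63.5 FPKM in Cre and 211, 227 and 213 FPKM in Cre + NFIA, with little spread within either group. Its log2 change was 1.73 (SE 0.055; adjusted p = 4.20e-11).

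Signalling genes formed the next set. Bmp4, a bone morphogenetic protein that commits mesenchymal cells to the adipocyte lineage, was at 0.526, 0.251 and 0.243 FPKM in Cre and 12.8, 11.5 and 13.999 FPKM in Cre + NFIA. It went from a few reads to a clear signal in every library, a log2 change of 3.36 (SE 0.13; limma adjusted p = 2.58e-10). Rgs2, a regulator that shortens G protein signals, was at 1.11, 1.12 and 0.499 FPKM in Cre and 7.45, 7.78 and 7.72 FPKM in Cre + NFIA, without overlap (log2 change 2.198, adjusted p = 8.70e-08). Ccnd1, the cyclin D1 that carries cells through G1, was at 3.47, 4.12 and 4.02 FPKM in Cre and 19.8, 19.6 and 18.4 FPKM in Cre + NFIA. The 6 values fell into 2 tight groups, and the change was 2.06 (SE 0.090003; adjusted p = 8.99e-10). Gdf15, a TGF-β superfamily member induced by stress, was at 2.55, 6.49 and 7.77 FPKM in Cre, where replicate 1 was lowest, and at 27.3, 24.7 and 21.8 FPKM in Cre + NFIA. The change was 2.05 (adjusted p = 1.08e-05), and 1.65 without Cre replicate 1. Angpt4, an angiopoietin that binds the receptor Tie2, was at 2.27, 1.83 and 1.93 FPKM in Cre and 10.8, 11.01 and 10.9 FPKM in Cre + NFIA. The spread within each group was small beside the change of 1.98 (adjusted p = 7.97e-08).

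Among transcription factors Foxf2, a forkhead factor of mesenchyme, was at 0.7903, 0.328 and 0.317 FPKM in Cre and 6.305, 5.28 and 6.15 FPKM in Cre + NFIA (log2 change 2.24, SE 0.14; limma adjusted p = 4.12e-08). It was under 1 FPKM in every Cre library, so it was tested only through Cre + NFIA and its groups had to differ. Orm3, Wfdc21, Lcn2 and Saa3 encode secreted proteins and rose as well. Orm3, an orosomucoid, was at 0.891, 0.167 and 0.648 FPKM in Cre and 5.58, 3.56 and 5.67 FPKM in Cre + NFIA (log2 change 1.93, adjusted p = 1.59e-05). Wfdc21, a small secreted protein with a whey acidic domain, was at 0.449, 0 and 0 FPKM in Cre and 5.57, 5.56 and 6.602 FPKM in Cre + NFIA (log2 change 2.61, adjusted p = 2.38e-08). Both were low genes whose Cre libraries sat near the detection floor. Lcn2, the siderophore-binding lipocalin 2, was at 68.4, 76.4 and 78.1 FPKM in Cre and 239.8, 216 and 224 FPKM in Cre + NFIA (log2 change 1.596, adjusted p = 5.31e-08). Saa3, a serum amyloid A, was at 582, 459 and 610.3 FPKM in Cre and 1302, 1065 and 1098 FPKM in Cre + NFIA, and rose by 1.07 (adjusted p = 6.89e-05). These 2 were well expressed in Cre cells already and did not overlap between groups. Ablim3, an actin-binding LIM protein, was the remaining gene of the 14 that rose most, from a mean of 0.748 to 5.54 FPKM (log2 change 1.91, adjusted p = 1.73e-08).

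Among passing genes whose groups did not overlap, the largest rise in absolute FPKM was in Fn1, the matrix protein fibronectin. It was at 1263, 1224 and 1275 FPKM in Cre and 1998, 2052 and 1846 FPKM in Cre + NFIA. Its log2 change was only 0.65 (SE 0.05999; limma adjusted p = 1.70e-06). Fth1, the ferritin heavy chain that stores iron, was at 602, 531 and 545 FPKM in Cre and 1141, 1178 and 1154 FPKM in Cre + NFIA (log2 change 1.05, adjusted p = 1.53e-08). Rplp1, a ribosomal stalk protein, was at 915, 1338 and 1231 FPKM in Cre and 1713, 1715 and 1603 FPKM in Cre + NFIA (log2 change 0.55, adjusted p = 0.00357). Cre replicate 1 was again the lowest library, and the change of Rplp1 was 0.38 without it.

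The genes that fell most at day 0 were led by growth factors and matrix-modifying proteins. Ptn (pleiotrophin, a heparin-binding growth factor) was abundant in Cre cells, at 574, 612 and 533 FPKM, and was at 72.05, 78.9 and 86.7 FPKM in Cre + NFIA. It fell in every comparison of single libraries, by a log2 change of -2.84 (SE 0.085; limma adjusted p = 2.56e-11). Cemip, which starts the breakdown of hyaluronan, was at 48.96, 42.9 and 45.7 FPKM in Cre and 7.74, 7.48 and 7.199 FPKM in Cre + NFIA, a change of -2.47 (SE 0.067; adjusted p = 9.74e-12). Npnt (nephronectin, a ligand of integrin α8β1) was at 8.201, 8.76 and 6.78 FPKM in Cre and 0.723, 0.706 and 0.719 FPKM in Cre + NFIA. It dropped below 1 FPKM in all 3 libraries with NFIA, a change of -2.37 (SE 0.099; adjusted p = 5.82e-10).

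Igf2 and Igfbp3 of the IGF system were among the largest falls. Igf2, an imprinted growth factor, was at 6.02, 6.11 and 6.44 FPKM in Cre and 0.787, 0.655 and 0.845 FPKM in Cre + NFIA (log2 change -2.03, SE 0.095; limma adjusted p = 1.88e-09). Igfbp3, a secreted carrier of IGFs, was at 27.5, 28.8 and 26.6 FPKM in Cre and 5.23, 6.295 and 5.85 FPKM in Cre + NFIA (log2 change -2.08, SE 0.084; adjusted p = 3.79e-10). In neither gene did the groups come close. Igf2 was under 1 FPKM in every Cre + NFIA library, so it was tested only through Cre and had to differ. Among membrane proteins Cacna1g, the pore of a T-type calcium channel, was at 21.4, 24.4 and 26.9 FPKM in Cre and 4.06, 3.95 and 3.65 FPKM in Cre + NFIA (log2 change -2.36, adjusted p = 3.38e-10). Slc7a8, the amino acid transporter LAT2, was at 13.5, 13.7 and 13.7 FPKM in Cre and 2.02, 1.79 and 2.06 FPKM in Cre + NFIA (log2 change -2.31, adjusted p = 2.58e-10). Il1rl1, the receptor of interleukin-33, was at 46.3, 43.9 and 39.8 FPKM in Cre and 11.6, 12.8 and 13.2 FPKM in Cre + NFIA (log2 change -1.71, adjusted p = 1.44e-08). Each of the 3 was high in all Cre libraries and low in all Cre + NFIA libraries.

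Other matrix genes among the 12 with the largest falls were Lrrc17, a secreted leucine-rich repeat protein, from a mean of 56.2 to 11.4 FPKM (log2 change -2.203, limma adjusted p = 8.65e-10), and Abi3bp, from 95.4 to 28.4 FPKM (-1.71, adjusted p = 1.88e-09). Col24a1, a minor fibrillar collagen, was at 10.2, 7.405 and 12.8 FPKM in Cre and 2.25, 1.78 and 2.09 FPKM in Cre + NFIA (log2 change -1.85, adjusted p = 9.66e-07). Pcp4l1 went from 7.77 to 1.16 FPKM (log2 change -2.02, adjusted p = 2.15e-07). Among passing genes whose groups did not overlap, the largest falls in absolute FPKM were in the chemokine Ccl2, then Ptn, the collagen chain Col1a1 and Pcolce. The last of these enhances the trimming of procollagen. Ccl2 was at 1782, 1884 and 1686 FPKM in Cre and 1217, 1181 and 1209.5 FPKM in Cre + NFIA (log2 change -0.57, adjusted p = 4.87e-06). Col1a1 was at 928, 1194 and 1339 FPKM in Cre and 709.6, 677 and 627 FPKM in Cre + NFIA (log2 change -0.77, adjusted p = 0.000182). Pcolce went from a mean of 1394 to 991 FPKM (log2 change -0.49, adjusted p = 0.000274).

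**Figure D2:**
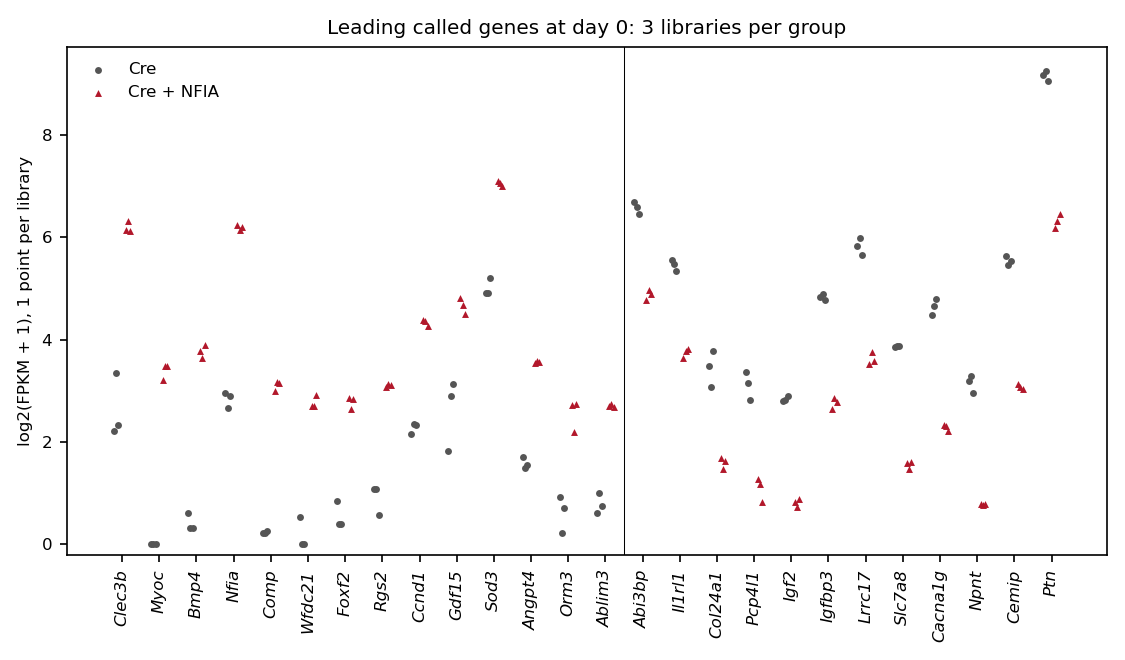
Day 0 level, log2(FPKM + 1), of the 14 genes with the largest rise (left of the line) and the 12 with the largest fall (right of it), 1 point per library, circles for Cre and triangles for Cre + NFIA. The 26 genes were picked among called genes whose groups did not overlap, so the 3 points of a group never cross those of the other. Ptn lies highest among the genes that fell and Sod3 among those that rose.

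The sequences before the start sites of 5 of these genes are shown as examples, because NFIA binds DNA: Bmp4, Foxf2 and Rgs2 rose and Ptn and Cemip fell. Each is 250 bases, 5′ to 3′ on the gene's strand, from the RefSeq promoter table (GRCm38.p6), and each was found exactly once in NCBIM37. Capitals mark a single arm of the NF1 site, TTGGC or its complement GCCAA.
Bmp4: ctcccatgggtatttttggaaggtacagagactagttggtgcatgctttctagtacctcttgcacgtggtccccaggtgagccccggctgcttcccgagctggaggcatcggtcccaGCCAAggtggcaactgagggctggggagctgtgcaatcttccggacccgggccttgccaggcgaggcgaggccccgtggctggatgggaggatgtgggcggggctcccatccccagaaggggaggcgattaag
Foxf2: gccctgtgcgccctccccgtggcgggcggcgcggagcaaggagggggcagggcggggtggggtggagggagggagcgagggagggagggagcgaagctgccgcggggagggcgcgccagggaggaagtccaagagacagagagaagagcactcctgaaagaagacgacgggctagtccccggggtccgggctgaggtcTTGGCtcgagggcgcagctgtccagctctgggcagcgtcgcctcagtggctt
Rgs2: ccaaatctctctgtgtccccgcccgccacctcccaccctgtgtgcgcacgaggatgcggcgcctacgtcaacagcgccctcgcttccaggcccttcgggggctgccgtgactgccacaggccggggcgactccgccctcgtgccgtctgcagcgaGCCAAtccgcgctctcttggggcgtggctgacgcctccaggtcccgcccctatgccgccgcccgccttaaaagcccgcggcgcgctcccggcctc
Ptn: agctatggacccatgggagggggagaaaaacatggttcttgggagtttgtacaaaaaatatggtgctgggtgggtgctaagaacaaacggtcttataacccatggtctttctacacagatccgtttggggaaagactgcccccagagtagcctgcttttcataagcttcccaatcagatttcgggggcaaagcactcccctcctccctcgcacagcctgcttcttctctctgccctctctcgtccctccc
Cemip: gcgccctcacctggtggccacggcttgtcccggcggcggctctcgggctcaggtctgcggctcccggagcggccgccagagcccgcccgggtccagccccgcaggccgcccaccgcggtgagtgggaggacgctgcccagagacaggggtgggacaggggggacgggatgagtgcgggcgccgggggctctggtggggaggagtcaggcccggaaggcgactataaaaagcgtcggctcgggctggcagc
On NCBIM37 these lie at chr14:47010345-47010594 (minus strand) for Bmp4, chr13:31717435-31717684 (plus) for Foxf2, chr1:145851280-145851529 (minus) for Rgs2, chr6:36760180-36760429 (minus) for Ptn and chr7:91235016-91235265 (minus) for Cemip. The arm begins at -133 in Bmp4, -52 in Foxf2 and -95 in Rgs2, counted from the start site, and these letters are not in the windows of Ptn and Cemip. The examples do not stand for all leading genes. Myoc, Gdf15, Angpt4 and Orm3 also rose, and their promoters in the RefSeq table held no arm on either strand.

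The table gave 300-base promoters (250 before and 50 after the start) for 25 of the 40 genes called higher and 14 of the 20 called lower, some with more than 1 start. The whole palindrome, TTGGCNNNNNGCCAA, stood in 12 of 32851 promoters of the table (0.0365%) and in none of the 31 promoters of genes called higher or the 20 of genes called lower. The single arm TTGGC, on either strand, is common by its length. It stood in 46.7% of all promoters, in 50.3% of those of tested genes, in 16 of the 31 promoters of genes called higher (51.6%) and in 3 of the 20 of genes called lower (15%). The AP-1 letters TGACTCA stood in 5.20% of all promoters, in 3.66% of those of tested genes, in 1 of the 31 and in 1 of the 20. Promoters of 1 gene overlap, a palindrome holds 2 arms, and a match of letters is a description of the window only.

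Lists of genes were then read against the 30.7% of all tested genes that passed in either direction and the median of 0.02. The nuclear factor I family had 4 tested members. Beside Nfia, Nfib was at 1.96, 2.32 and 2.37 FPKM in Cre and 1.01, 1.33 and 1.23 FPKM in Cre + NFIA and fell (log2 change -0.56, SE 0.12; limma adjusted p = 0.0021). The Nfib groups did not overlap, and its levels were low in both. Nfix was at 63.6, 79.7 and 74.5 FPKM in Cre and 59.6, 61.9 and 60.9 FPKM in Cre + NFIA (log2 change -0.25, adjusted p = 0.0211). Nfix did not pass without Cre replicate 2 (limma adjusted p = 0.102), Cre replicate 3 (0.067), Cre + NFIA replicate 1 (0.0643) or Cre + NFIA replicate 3 (0.0537). Nfic did not pass (-0.17, adjusted p = 0.226), except without Cre replicate 1 (-0.29, adjusted p = 0.0219).

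Of 32 tested adipogenic transcription factors 10 rose, 7 fell and 15 did not pass, with a median of 0.15, or 0.045 without Cre replicate 1. The largest rises were in Cebpd, Cebpb, Cebpa and Pparg. Cebpd, one of the first factors induced in adipogenesis, was at 14.2, 27.4 and 29.4 FPKM in Cre and 68.95, 83.3 and 70.1 FPKM in Cre + NFIA (log2 change 1.67, SE 0.2003; limma adjusted p = 1.96e-05). Cebpb, which acts beside it, was at 11.02, 15.2 and 19.8 FPKM in Cre and 32.6, 41.2 and 37.2 FPKM in Cre + NFIA (log2 change 1.25, adjusted p = 0.000109). In both genes Cre replicate 1 was lowest, and without it the changes were 1.35 and 1.04, still past the test. Cebpa, which maintains the adipocyte state, was at 7.79, 9.65 and 8.34 FPKM in Cre and 19.5, 21.9 and 20.4 FPKM in Cre + NFIA (log2 change 1.17, SE 0.103; adjusted p = 9.66e-07). Pparg was at 3.35, 3.01 and 2.16 FPKM in Cre and 4.89, 7.25 and 6.51 FPKM in Cre + NFIA (log2 change 0.91, SE 0.15; adjusted p = 0.000279). Neither overlapped, and Pparg stayed a low gene. Zfp423, a factor of preadipocyte commitment, was lower still, at 1.02, 0.803 and 1.002 FPKM in Cre and 1.78, 1.65 and 1.36 FPKM in Cre + NFIA (log2 change 0.42, adjusted p = 0.0109). Members that fell were led by Klf2 (-0.65, adjusted p = 0.00125), Zfp521 (-0.53, adjusted p = 0.000259) and Gata2 (-0.43, adjusted p = 0.00367), all 3 known as restraints on adipogenesis.

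Genes of the mature adipocyte stayed low before induction. Of 27 listed 17 were tested, 7 rose, none fell and 10 did not pass, with a median of 0.29. Plin4, a lipid droplet protein, was at 4.22, 4.52 and 4.57 FPKM in Cre and 8.95, 10.3 and 9.06 FPKM in Cre + NFIA (log2 change 0.94, limma adjusted p = 3.56e-06), without overlap. Pnpla2, the lipase that opens fat breakdown, went from a mean of 4.02 to 5.95 FPKM (0.47, adjusted p = 0.00151). Fabp4, the adipocyte fatty acid carrier, overlapped at 18.4, 9.305 and 13.2 FPKM in Cre and 20.8, 15.7 and 18.2 FPKM in Cre + NFIA and did not pass (0.43, 95% interval 0.056 to 0.81, adjusted p = 0.0769), although it did without Cre replicate 1 (0.66, adjusted p = 0.00492). Adipoq (adiponectin) was at 0.879, 0.735 and 0.6096 FPKM in Cre and 1.83, 1.38 and 1.21 FPKM in Cre + NFIA and did not pass either (adjusted p = 0.0807), although it did with only the 6 compared libraries in the model (0.501, adjusted p = 0.0199). Of 21 thermogenic genes only 4 were tested. Ucp1 had no read in any of the 6 libraries, and Cidea, Ppargc1a and Ppara stayed at or under 0.471 FPKM. Prdm16, a determinant of brown and beige fat, was at 1.68, 1.997 and 1.83 FPKM in Cre and 1.198, 1.27 and 1.34 FPKM in Cre + NFIA (log2 change -0.32, adjusted p = 0.0192). Prdm16 did not pass without Cre replicate 2 (limma adjusted p = 0.0661) or Cre + NFIA replicate 1 (0.0621), or with only the 6 compared libraries in the model (0.0586).

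**Figure D3:**
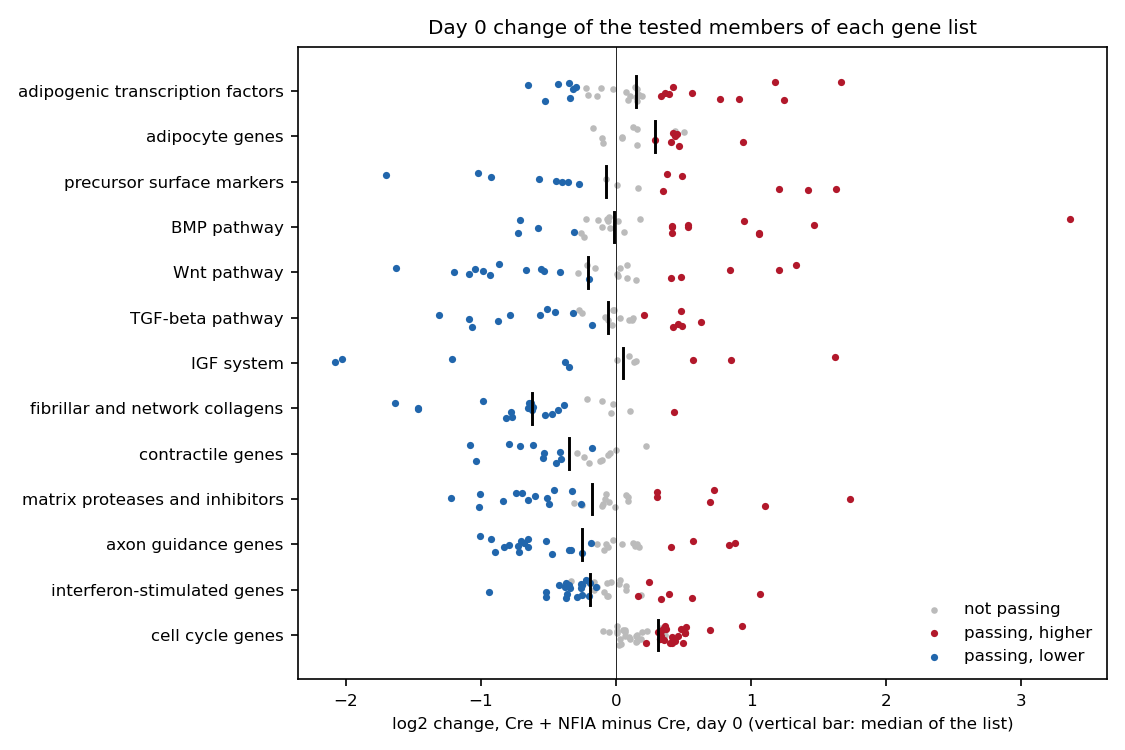
Day 0 log2 change (horizontal axis) of each tested member of 13 gene lists, 1 point per gene, red for members that passed the test higher in Cre + NFIA, blue for lower and grey for neither, with a bar at the median of the list. Collagens and contractile genes lie mostly left of 0, cell cycle genes right of it, and BMP and IGF genes are spread to both sides.

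Surface proteins by which precursors are sorted moved in both directions: of 17 tested 6 rose, 8 fell and 3 did not pass (median -0.07, or -0.019 without Cre replicate 2 and -0.17 under quantile normalization). Thy1 (CD90) was at 11.2, 11.03 and 10.7 FPKM in Cre and 36.9, 36.3 and 34.8 FPKM in Cre + NFIA (log2 change 1.63, limma adjusted p = 7.12e-10). Eng (endoglin, a TGF-β co-receptor) was at 2.67, 3.04 and 2.14 FPKM in Cre and 9.35, 8.75 and 7.91 FPKM in Cre + NFIA (1.42, adjusted p = 1.91e-07). Cd34 was at 92.4, 113 and 91.97 FPKM in Cre and 215, 244 and 228 FPKM in Cre + NFIA (1.21, adjusted p = 7.44e-07). These were the 3 largest rises and none overlapped. F3 (tissue factor, CD142), the starter of coagulation that marks a subset of precursors, was at 134, 142 and 136 FPKM in Cre and 40.1, 43.3 and 41.7 FPKM in Cre + NFIA and fell (log2 change -1.698, SE 0.063; adjusted p = 2.22e-10). Dlk1 (Pref-1), a restraint on adipogenesis, was at 1.82, 3.33 and 2.68 FPKM in Cre and 0.507, 0.903 and 0.873 FPKM in Cre + NFIA (-1.02, adjusted p = 9.30e-05). Vcam1, an adhesion molecule, fell as well (-0.92, adjusted p = 1.20e-07). The PDGF receptors went opposite ways. Pdgfra was at 77.98, 69.9 and 74.4 FPKM in Cre and 92.5, 90.97 and 101 FPKM in Cre + NFIA and rose by 0.35 (adjusted p = 0.000332), while Pdgfrb was at 97.3, 86.8 and 91.98 and 64.1, 58.4 and 62.7 FPKM and changed by -0.57 (adjusted p = 9.47e-06). Ly6a did not pass (0.011, adjusted p = 0.907), except under quantile normalization, where it was -0.17 (adjusted p = 0.0346). Of 8 tested genes of interstitial progenitors 2 rose and 3 fell. Without Cre replicate 2 only 1 of the 8 fell, without Cre + NFIA replicate 3 1 rose and 1 fell, and without Cre replicate 3 or Cre + NFIA replicate 2 1 rose.

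In the BMP pathway 10 of 26 tested genes rose and 4 fell. Their median was -0.013, and it lay between -0.028 (without Cre replicate 2) and 0.024 (without Cre + NFIA replicate 1) with 1 library left out. Beside the ligand Bmp4, the secreted BMP modulator Bmper was at 0.569, 0.476 and 0.756 FPKM in Cre and 2.56, 4.09 and 3.701 FPKM in Cre + NFIA (log2 change 1.46, limma adjusted p = 1.96e-06). Id1, a direct target of BMP signals, was at 27.8, 37.9 and 44.1 FPKM in Cre and 88.8, 80.1 and 61.4 FPKM in Cre + NFIA (1.06, adjusted p = 0.000218). Neither overlapped. The antagonist Fstl3 (-0.72, adjusted p = 0.000455) and the procollagen protease Bmp1 (-0.58, adjusted p = 3.34e-05) fell. In the TGF-β list 6 of 27 rose and 10 fell (median -0.06, between -0.11 without Cre replicate 1 and -0.023 without Cre replicate 2). Its largest falls were Inhbb, an activin subunit, from a mean of 18.4 to 6.84 FPKM (-1.31, adjusted p = 5.99e-09), Thbs1, which activates latent TGF-β, from 502 to 235 FPKM (-1.09, adjusted p = 1.82e-09), and Tgfbi, a target, from 43.6 to 20.3 FPKM (-1.06, adjusted p = 8.94e-07). Skil, a repressor of Smad signals, rose by 0.63 (adjusted p = 0.000297).

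Of 26 tested Wnt genes 5 rose and 12 fell (median -0.21). Rspo2, an enhancer of Wnt signals, was at 5.505, 5.04 and 5.81 FPKM in Cre and 0.809, 1.198 and 1.28 FPKM in Cre + NFIA (log2 change -1.63, limma adjusted p = 1.73e-06). Sfrp1, a secreted Wnt antagonist, was at 202, 179 and 184 FPKM in Cre and 79.98, 79.4 and 84.9 FPKM in Cre + NFIA (-1.2005, adjusted p = 1.22e-09). Ligand genes went both ways. Wnt2 was at 4.42, 5.197 and 3.49 FPKM in Cre and 1.82, 1.503 and 1.23 FPKM in Cre + NFIA (-1.09, adjusted p = 3.89e-05), and Wnt10b, known to hold precursors undifferentiated, was at 1.15, 0.871 and 1.85 and 4.89, 4.66 and 4.48 FPKM (1.33, adjusted p = 5.40e-06). Sfrp4, another secreted antagonist, rose by 1.21 (adjusted p = 2.89e-05), and the receptor Fzd4 by 0.85 (adjusted p = 0.000569). Activators and antagonists of the pathway stood among its falls and among its rises. Of 12 tested IGF system genes 3 rose and 5 fell. Igfbp2 fell with Igf2 and Igfbp3 (-1.21, adjusted p = 4.16e-05), and Stc1, an inhibitor of the IGFBP protease PAPP-A, rose from a mean of 0.199 to 2.69 FPKM (1.62, adjusted p = 9.93e-08).

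Collagens fell as a group: of 22 tested chains 16 fell, 1 rose and 5 did not pass, with a median of -0.62. Col3a1 was at 404, 450.4 and 483 FPKM in Cre and 219, 238 and 217 FPKM in Cre + NFIA (log2 change -0.98, limma adjusted p = 1.25e-07). Col1a2 was at 715, 833 and 896 FPKM in Cre and 536, 544 and 499.6 FPKM in Cre + NFIA (-0.62, adjusted p = 1.86e-05). Both are chains of the abundant fibrils of connective tissue, and neither overlapped. Of the listed chains, which do not include Col24a1, the largest falls were in low ones, Col27a1 at 10.7, 12.6 and 16.7 FPKM in Cre and 3.71, 3.303 and 3.68 FPKM in Cre + NFIA (-1.63, adjusted p = 5.81e-07), Col7a1 (-1.47, adjusted p = 9.15e-07) and Col10a1 (-1.46, adjusted p = 3.50e-06). The 1 chain that rose was Col18a1 (0.43, adjusted p = 0.0184), which did not pass without Cre replicate 1 (adjusted p = 0.0816) or Cre + NFIA replicate 2 (0.0577). Matrix groups other than collagens were mixed. Of 10 small leucine-rich proteoglycans 3 rose and 3 fell. Prelp was at 9.37, 14.04 and 13.1 FPKM in Cre and 34.2, 36.2 and 29.5 FPKM in Cre + NFIA (1.396, adjusted p = 7.04e-07), and Dcn (decorin) was at 5.24, 5.35 and 4.88 and 16.3, 12.99 and 13.3 FPKM (1.3001, adjusted p = 3.64e-06), whereas Fmod (fibromodulin) was at 6.02, 6.29 and 6.05 and 1.95, 2.31 and 2.27 FPKM (-1.17, adjusted p = 9.91e-08). None of these 3 overlapped.

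Of 17 elastic fibre genes 6 rose and 8 fell, with the core protein Eln up from 0.669 to 2.91 FPKM (1.23, limma adjusted p = 2.20e-05) and the fibulin Fbln5, which assembles elastin, down from 15.7 to 7.601 FPKM (-0.95, adjusted p = 1.23e-07). Of 14 basement membrane genes and integrins 6 rose, led by Nid2 (1.13, adjusted p = 1.04e-07) and Itga6 (1.13, adjusted p = 1.86e-05), and 3 fell, led by Npnt. Hyaluronan genes counted 4 rises and 3 falls of 11, and heparin-binding growth factors 6 and 4 of 19. Of 30 matrix proteases and inhibitors 6 rose and 13 fell (median -0.18). After Timp3, Htra3 was the next largest rise (1.105, adjusted p = 1.38e-06), and Mmp9, a gelatinase, was the largest fall, at 1.52, 1.75 and 1.46 FPKM in Cre and 0.0886, 0.1001 and 0.118 FPKM in Cre + NFIA (-1.22, adjusted p = 4.08e-06). Mmp9 dropped to a few reads in every Cre + NFIA library.

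None of 20 tested contractile genes rose and 11 fell (median -0.35), although 1 rose without Cre replicate 2 or 3. Cnn2, a calponin, was at 238, 259 and 247 FPKM in Cre and 123, 117 and 110.0 FPKM in Cre + NFIA (log2 change -1.08, limma adjusted p = 3.57e-08). Myl9, a myosin light chain, was at 37.7, 39.2 and 38.3 FPKM in Cre and 20.4, 15.9 and 18.6 FPKM in Cre + NFIA (-1.03, adjusted p = 3.14e-06). Acta2, smooth muscle actin, was at 103, 108 and 111 FPKM in Cre and 77.95, 73.4 and 69.2 FPKM in Cre + NFIA (-0.54, adjusted p = 1.45e-05). None of the 3 overlapped. Skeletal muscle genes were nearly silent in both groups: of 34 listed 3 were tested and none passed (1 did without Cre replicate 2), Myod1, Myh8 and Gm45923 had no read in any of the 6 libraries, and Myog had at most 0.0874 FPKM. Of 22 YAP and TEAD targets 6 rose and 7 fell, with Ctgf (CCN2) down from 32.5 to 18.8 FPKM (-0.76, adjusted p = 9.35e-06).

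Cell cycle genes rose modestly. Of 45 tested 22 rose, none fell and 23 did not pass (median 0.31), and all 22 changed by less than 2-fold. Rrm2, a subunit of ribonucleotide reductase, was at 36.5, 42.2 and 37.5 FPKM in Cre and 76.5, 76.3 and 71.8 FPKM in Cre + NFIA (log2 change 0.94, limma adjusted p = 6.04e-08). Cdc20, an activator of the anaphase-promoting complex, was at 53.5, 53.5 and 60.5 FPKM in Cre and 96.7, 91.4 and 85.6 FPKM in Cre + NFIA (0.6996, adjusted p = 5.20e-06). Both sets of libraries were apart. Of 24 p53 targets 10 rose and 2 fell (median 0.20), led by the growth arrest gene Gadd45a (0.98, adjusted p = 3.64e-06), and the falls numbered 0 without Cre replicate 3 and 1 without any other single library. Of 24 immediate early genes 8 rose and 3 fell. The AP-1 subunit Jund was at 4.86, 10.4 and 8.87 FPKM in Cre and 19.2, 23.04 and 20.7 FPKM in Cre + NFIA (1.33, adjusted p = 8.24e-05), with Cre replicate 1 lowest, and its change was 1.05 without that library. All cells carried large T antigen, which acts on the cell cycle and on p53.

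The immune lists held more falls than rises. Of 41 interferon-stimulated genes 6 rose and 19 fell (median -0.19), with 3 rises under quantile normalization or without Cre replicate 1, Cre + NFIA replicate 2 or Cre + NFIA replicate 3. Mx1, an antiviral GTPase, was at 83.4, 87.5 and 76.99 FPKM in Cre and 36.2, 44.2 and 47.9 FPKM in Cre + NFIA (log2 change -0.94, limma adjusted p = 4.05e-05), and the chemokine Cxcl10 was at 513, 522 and 535 and 343, 369 and 385 FPKM (-0.52, adjusted p = 0.000103). Oasl1 went against them, at 57.9, 53.3 and 50.7 FPKM in Cre and 118, 109.7 and 113 FPKM in Cre + NFIA (1.07, adjusted p = 2.07e-08). None of the 3 overlapped. Of 20 MHC class I genes 1 rose and 5 fell. The 1 rise was lost under size factors, quantile normalization and without Cre replicates 2 or 3 or Cre + NFIA replicates 2 or 3, and 2 rose without Cre replicate 1. The falls of the list numbered 2 without Cre replicate 2 or Cre + NFIA replicates 1 or 3, and 3 without Cre + NFIA replicate 2. Of 13 complement genes 2 rose and 7 fell: the central component C3 was at 243, 237 and 253 FPKM in Cre and 429, 411 and 406 FPKM in Cre + NFIA (0.76, adjusted p = 4.13e-07), while the protease C1ra was at 212, 216 and 209 and 146, 152 and 153 FPKM (-0.497, adjusted p = 2.36e-06). Of 23 chemokines and cytokines 4 rose, among them Ccl9 (1.38, adjusted p = 3.19e-07), and 8 fell.

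Of 31 axon guidance genes 4 rose and 17 fell (median -0.25), among them the ephrins Efnb1 (-1.005, limma adjusted p = 2.55e-06) and Efna2 (-0.93, adjusted p = 1.31e-05), while the semaphorin Sema3f rose (0.88, adjusted p = 4.41e-05). Of 23 cholesterol synthesis genes 6 rose and none fell. Of 15 retinoid genes 3 rose, led by the retinal dehydrogenase Aldh1a1 (1.35, adjusted p = 2.55e-06), and 2 fell. The retinoid falls numbered 4 under quantile normalization or without Cre replicate 1, 1 without Cre replicate 3 or Cre + NFIA replicate 2, and 0 without Cre replicate 2 or Cre + NFIA replicate 3. Of 25 homeobox cluster genes 1 rose (none without Cre replicates 1 or 2 or Cre + NFIA replicates 1 or 2) and 6 fell, led by Hoxc5 (-0.699, adjusted p = 1.34e-05). In the thermogenic, MHC class I, cholesterol, retinoid and homeobox lists the share that passed was 25% to 33.3%, near that of all tested genes.

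The same contrast was measured at day 7 in other libraries, which asks whether the day 0 changes of precursors were still there after differentiation. At day 7, 113 of the 11270 genes were called higher (1.00%) and 181 lower (1.61%), and 2964 (26.3%) passed higher and 4384 (38.9%) lower. The falls stayed. All 20 genes called lower at day 0 passed lower at day 7, 11 of them called, and their median log2 change was -1.78 at day 0 and -1.66 at day 7. Ptn was at 517, 475 and 543 FPKM in Cre and 64.6, 64.9 and 72.7 FPKM in Cre + NFIA at day 7 (log2 change -2.91, limma adjusted p = 5.80e-12). Lrrc17 was at 77.1, 67.5 and 83.9 and 11.7, 11.5 and 13.5 FPKM (-2.54, adjusted p = 7.65e-10). Both kept the wide gap between groups that they had at day 0.

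The rises did so less. Of the 40 genes called higher at day 0, 17 passed higher at day 7, 14 did not pass and 9 passed lower, and their median log2 change went from 1.77 to 0.19. The 8 that were called higher on both days were Angpt4, Bmp4, Hsd11b1, Nfia, Orm3, Rgs2, Steap4 and Wfdc21. Hsd11b1, which makes active glucocorticoid, was at 13.2, 13.2 and 9.84 FPKM in Cre and 98.04, 108 and 96.2 FPKM in Cre + NFIA at day 7 (log2 change 2.97, limma adjusted p = 3.80e-10), against 1.64 at day 0. Steap4, a metalloreductase, was at 9.98, 11.03 and 7.01 and 45.1, 44.2 and 40.3 FPKM (2.11, adjusted p = 1.22e-06), against 1.88 at day 0. Both remained without overlap. Clec3b, the largest rise at day 0, was at 10.6, 11.7 and 10.7 FPKM in Cre and 21.7, 17.1 and 16.2 FPKM in Cre + NFIA at day 7 (0.68, adjusted p = 0.000723). Thy1 and Lcn2 turned round: Thy1 was at 80.3, 68.8 and 84.6 and 47.5, 46.5 and 46.7 FPKM (-0.71, adjusted p = 0.000323), and Lcn2 was at 11.1, 15.1 and 7.96 and 6.37, 6.302 and 5.21 FPKM (-0.797, adjusted p = 0.00155).

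The difference between days was tested itself, as the day 7 contrast minus the day 0 contrast. It compared the 12 libraries of both contrasts, with the spread taken over all 24 libraries. By the same rule 76 genes (0.674%) had a called positive and 135 (1.20%) a called negative difference. Of the 40 genes called higher at day 0, 22 had a called negative difference and 1, Wfdc21, a called positive one; of the 20 called lower none had a called difference, 7 passed with a positive and 3 with a negative one. These genes were chosen for their day 0 change, which is part of that difference. Cyclin D1 gave a clear case. Ccnd1 was at 18.5, 18.3 and 19.5 FPKM in Cre and 11.4, 13.7 and 12.7 FPKM in Cre + NFIA at day 7, lower with NFIA (-0.54, limma adjusted p = 0.000511), and its difference between days was -2.599 (SE 0.14; adjusted p = 4.79e-12). Cebpd was at 7.27, 7.49 and 6.73 and 3.79, 4.19 and 4.15 FPKM at day 7, with a difference of -2.36 (adjusted p = 9.50e-08). Timp3 was at 68.3, 60.03 and 71.4 and 44.3, 45.3 and 46.1 FPKM, with a difference of -2.28 (adjusted p = 1.87e-12).

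Cebpa and Pparg were higher with NFIA on both days. Cebpa was at 69.3, 85.7 and 49.01 FPKM in Cre and 159.7, 167 and 162 FPKM in Cre + NFIA at day 7 (log2 change 1.28, limma adjusted p = 4.70e-05), and its difference between days was 0.11 (adjusted p = 0.731). Pparg was at 24.05, 26.996 and 16.3 and 60.2, 63.2 and 56.5 FPKM (1.41, adjusted p = 5.14e-06), with a difference of 0.498 (adjusted p = 0.0925). Fabp4 was at 5365, 6611 and 2914 and 14491, 14714 and 14648 FPKM at day 7 (1.64, adjusted p = 0.000575), far above its day 0 level in both groups. The largest positive differences were in genes that did not rise at day 0. Cbr2, a carbonyl reductase, was at 20.05, 18.999 and 18.4 FPKM in Cre and 13.2, 12.3 and 11.5 FPKM in Cre + NFIA at day 0, where it fell (-0.59, adjusted p = 0.00158), and at 2.86, 3.64 and 2.48 and 179, 179 and 197 FPKM at day 7, so its difference was 6.15 (adjusted p = 4.61e-16). Fabp3, a fatty acid carrier of muscle and brown fat, had a difference of 3.56 (adjusted p = 3.24e-08).

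**Figure D4:**
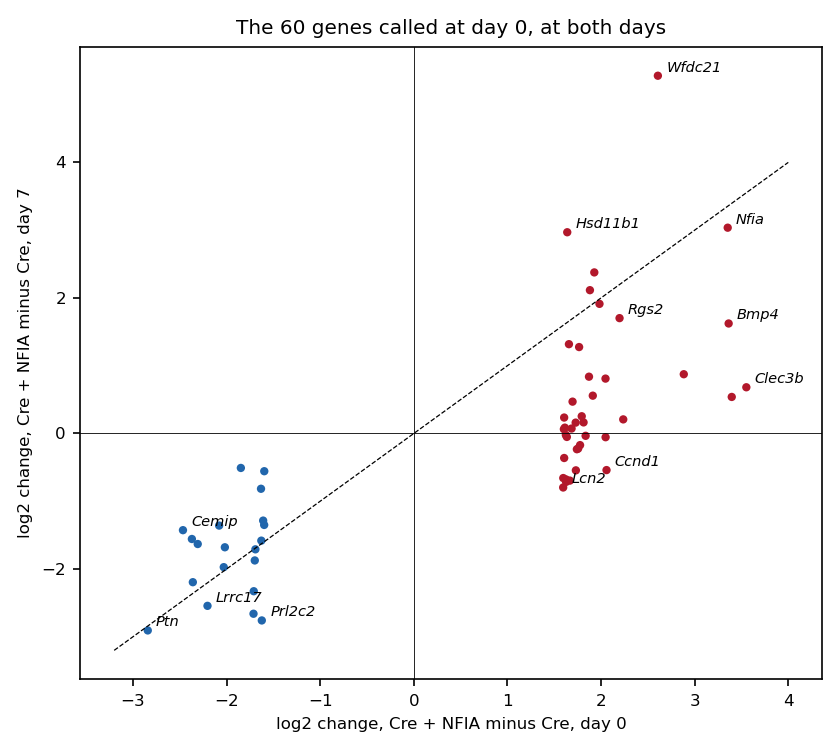
Log2 change between Cre + NFIA and Cre at day 7 (vertical axis) against that at day 0 (horizontal axis) for the 60 genes called at day 0, 1 point per gene, red for called higher and blue for called lower, with a dashed line of equal change. All 20 blue points lie below 0 at day 7, while the red points range from Wfdc21 at 5.28 to Lcn2 at -0.797.

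Cells with full-length NFIA were compared with cells carrying the mutant Δpro#3 at day 0, which asks about the proline-rich stretch. This contrast and the one against Cre use the same Cre + NFIA libraries, so values are given side by side. Nfia itself was at 61.7, 59.7 and 60.7 FPKM in Δpro#3, somewhat under full-length NFIA (log2 difference 0.25, limma adjusted p = 0.0408). Between Cre + NFIA and Δpro#3, 19 genes (0.169%) were called higher in Cre + NFIA and 3 (0.0266%) lower, and 693 (6.15%) passed higher and 601 (5.33%) lower. Of the 40 genes called higher over Cre, 13 were also called higher over the mutant, 35 passed higher and 5 did not pass, and of the 20 called lower 2 were called lower, 15 passed lower and 5 did not pass.

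In some genes the mutant was at or under the Cre level. Clec3b was at 4.204, 5.17 and 5.05 FPKM in Δpro#3, against a mean of 5.65 FPKM in Cre and 72.2 FPKM in Cre + NFIA (Cre + NFIA over the mutant 3.66, limma adjusted p = 3.97e-08). Bmp4 was at 0.429, 0.277 and 0.3803 FPKM in Δpro#3 (3.33, adjusted p = 7.80e-10). Timp3 was at 49.9996, 45.7 and 46.97 FPKM in Δpro#3, below the mean of 64.7 FPKM in Cre (2.17, adjusted p = 7.14e-12). Cebpa and Pparg were of this kind, with Cebpa at 5.68, 4.72 and 5.34 FPKM (1.79, adjusted p = 3.97e-08) and Pparg at 2.52, 3.12 and 2.39 FPKM in Δpro#3 (0.96, adjusted p = 0.000389). Adam33, a membrane metalloprotease, was at a mean of 1.63 FPKM in Cre, 0.894 in Δpro#3 and 8.18 in Cre + NFIA (2.27, adjusted p = 7.06e-08). In each of these 6 genes the Cre + NFIA libraries stood above all Δpro#3 libraries.

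In others the mutant was near the full-length level. Cebpd was at 60.2, 62.3 and 59.6 FPKM in Δpro#3 and did not pass against Cre + NFIA (0.28, SE 0.2003; limma adjusted p = 0.461). Cebpb was at 38.4, 35.3 and 35.6 FPKM (0.016, SE 0.18; adjusted p = 0.976). The lectin Lgals3 was at a mean of 40.04 FPKM in Cre, 112 in Δpro#3 and 124 in Cre + NFIA (0.14, SE 0.072; adjusted p = 0.291). Among falls Igf2 was at 0.797, 0.647 and 0.986 FPKM in Δpro#3 (-0.036, SE 0.095; adjusted p = 0.88) and Lrrc17 at 11.5, 12.5 and 14.5 FPKM (-0.15, SE 0.096; adjusted p = 0.378). A missed threshold does not show that the 2 proteins acted alike on them.

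In still others the mutant lay between. Ptn was at 153, 157 and 184 FPKM in Δpro#3, under all Cre libraries and above all Cre + NFIA libraries (-1.05, SE 0.085; limma adjusted p = 1.11e-06). Cemip was at 15.2, 14.4 and 13.3 FPKM (-0.85, adjusted p = 8.17e-07), F3 at 84.1, 80.8 and 90.1 FPKM (-1.01, adjusted p = 8.14e-08) and Sod3 at 74.4, 64.5 and 61.1 FPKM (0.99, adjusted p = 9.84e-05). The mutant sat between the groups in these 3 as well. In Col24a1 and in Prl2c2, a prolactin-family gene whose near copies make its value uncertain, the mutant libraries overlapped those of Cre. Col24a1 was at 11.4, 8.43 and 9.76 FPKM in Δpro#3 (-1.83, adjusted p = 2.34e-06), and Prl2c2 was at 49.9, 48.8 and 58.1 FPKM in Δpro#3, 51.4, 44.2 and 44.2 FPKM in Cre and 13.3, 13.1 and 17.1 FPKM in Cre + NFIA (-1.78, adjusted p = 2.72e-07).

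The ctrl cells place these levels beside those of cells without Cre. Clec3b was at 10.2, 12.3 and 11.6 FPKM in ctrl and Bmp4 at 0.517, 0.351 and 0.148 FPKM, both far under Cre + NFIA. Ptn was at 528, 608 and 542 FPKM in ctrl, at the level of Cre. Dcn differed, at 16.1, 21.8 and 18.7 FPKM in ctrl against a mean of 5.15 in Cre and 14.2 in Cre + NFIA (Cre minus ctrl -1.68, limma adjusted p = 6.22e-06). Pdgfra was at 134, 138 and 135 FPKM in ctrl, above both (Cre minus ctrl -0.86, adjusted p = 1.59e-06). Mean Nfia was 6.47 FPKM in ctrl against 72.4 FPKM in Cre + NFIA, so the added NFIA was well over the level of the locus.

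**Figure D5:**
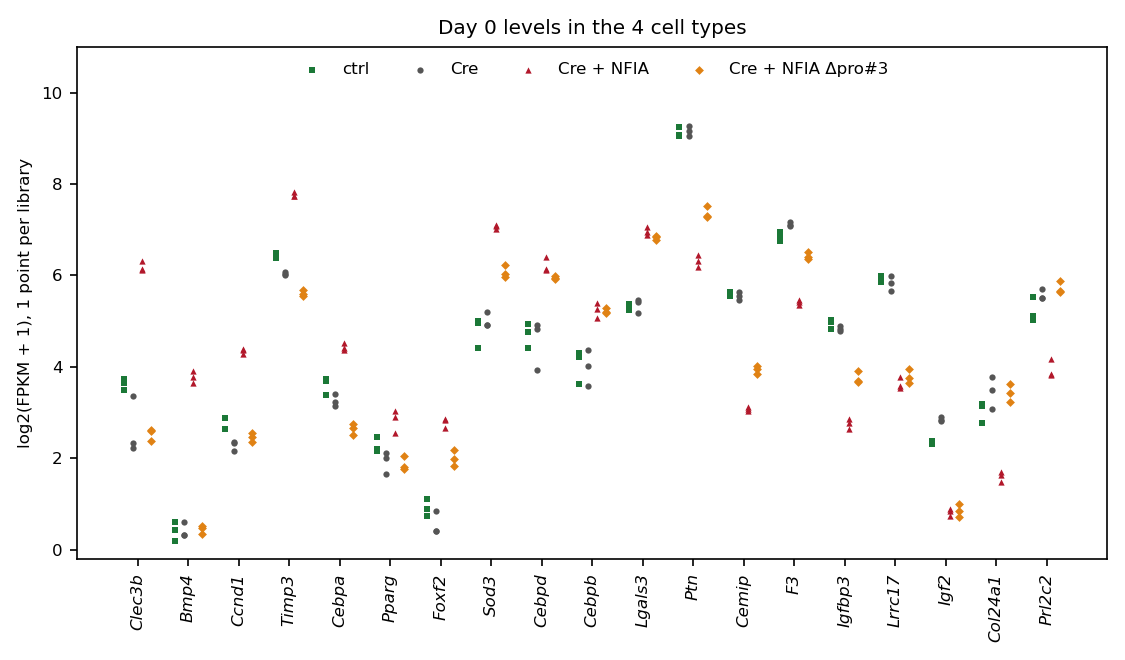
Day 0 level, log2(FPKM + 1), of 19 genes in ctrl (squares), Cre (circles), Cre + NFIA (triangles) and Cre + NFIA Δpro#3 (diamonds), 1 point per library. Bmp4 and Ccnd1 are high only with full-length NFIA among the 4 groups shown, Cebpd and Lgals3 are high with either protein, and Ptn in Δpro#3 lies between Cre and Cre + NFIA.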

How the data were processed

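RNA-seq libraries of ingSVF cells were made with a TruSeq stranded mRNA kit. The authors aligned the reads to mm9 with STAR 2.5.3a, kept unique alignments, counted those on the strand of each gene and deposited 1 table per library with FPKM, counts divided by gene length and library total. In each library 100% of values equalled a whole number of reads (tolerance 0.05), so the reads behind them were recovered. Day 0 library totals were 7.73 to 13.1 M reads (M, 1000000) and those of day 7 9.15 to 14.6 M. The reads carry no molecular identifiers, so the floor of 3 reads per library covers counting error only. Of 24825 rows, 26 had date-like symbols, 4 had repeated symbols (neither is named here) and 1267 were shorter than 200 bases.

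Values were taken as log2(FPKM + 1), and genes with at least 1 FPKM in at least 3 of the 6 compared libraries were kept. Linear models with a mean-variance trend were fitted in R 4.3.3 with limma 3.58.1. The day 0 contrasts were fitted over the 12 day 0 libraries and the day 7 contrast over the 12 day 7 libraries. The difference between days was fitted over all 24. Tests were two-sided with Benjamini-Hochberg adjusted p over the 11270 genes. A gene passed at an adjusted p under 0.05 and was called at a change of at least 3-fold as well. Groups came from the sample titles. The models were tested on simulated data. The genes named are those the study is about, the 14 called rises and 12 called falls with the largest log2 change, the 4 largest rises and falls in FPKM, up to 3 passing members per direction of each list and its defining members, and up to 5 called genes per direction of the difference between days and of the contrast with the mutant; a few of them are not reported here. The rises and falls picked by log2 change or by FPKM were drawn only from passing genes whose groups did not overlap. The comparison and the gene lists were chosen with earlier results of these data known. Positions and exact matches of the promoters are on NCBIM37, which mm9 names.

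The alternatives tried were no filter on length or on low values, a mean of at least 5 FPKM, pseudocounts of 0.1 and 5, median-of-ratios size factors, quantile normalization, limma without trend, limma voom on recovered reads, thinning of reads to the smallest library, the replicate number as a block, only the 6 compared or all 24 libraries in the model, other fold thresholds, and each library left out.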

Additional observations from a re-analysis of the deposited data

Results flagged for a closer look

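In 32 genes named by the rule the change between Cre + NFIA and Cre differed between day 0 and day 7, with a limma interaction past an adjusted p of 0.05 and a difference of at least 3-fold. Differences are day 7 minus day 0, in log2, and genes chosen for a large day 0 change had that change as part of the difference.

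Of the genes called higher at day 0, the difference was -2.87 for Clec3b, -2.86 for Myoc, -1.74 for Bmp4, -2.01 for Comp, -2.03 for Foxf2, -2.599 for Ccnd1, -2.104 for Gdf15, -2.28 for Timp3, -2.36 for Cebpd, -2.34 for Thy1 and -1.65 for Stc1. Wfdc21 went the other way at 2.67, with 123, 144 and 118 FPKM in Cre + NFIA and 2.28, 4.49 and 1.03 FPKM in Cre at day 7.

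Other genes that rose at day 0 and had a lower change at day 7 were Eng (-1.69), Prelp (-1.72), Ccl9 (-1.73), Serpinb1a (-2.66), Jund (-1.82), Sfrp4 (-2.03), Cd34 (-1.61), Loxl4 (-2.09), Id1 (-1.97), Ier5l (-2.57), Igfbp6 (-1.95), Fn1 (-1.65) and Pdgfra (-1.73). None of these 13 was called at day 0, so a negative difference of at least 3-fold made the day 7 change negative by construction. In 13 of 13 that change also passed the day 7 test. The rise of Ier5l at day 0 did not pass without Cre replicate 1 (limma adjusted p = 0.0641) or with no filter on low values (0.0506).

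Positive differences beside Wfdc21 were in Cbr2 (6.15), Acaa1b (3.57), Fabp3 (3.56), Reep6 (3.16), Fam213a (3.04), Rarres2 (1.88) and Nfib (1.82). Nfib, Cbr2, Reep6 and Rarres2 passed lower at day 0 and higher at day 7. At day 0 Reep6 did not pass in 7 alternatives (limma adjusted p up to 0.1715, without Cre replicate 2). Rarres2 did not pass in 6 (up to 0.1398, without Cre + NFIA replicate 3). For Nfib the day 7 values were 4.67, 5.85 and 3.73 FPKM in Cre and 13.1, 13.4 and 11.7 FPKM in Cre + NFIA.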

How the results depend on the processing

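Of 4063 recomputed changes of 230 named genes in the day 0 comparison, 3951 kept their side of the adjusted p threshold. Those of them that passed also kept their direction, and a change of sign was not counted where neither fit passed. Another 108 no longer passed and 3 newly passed in the same direction. The 1 left passed in the direction opposite to the main fit (Ly6a, -0.17 under quantile normalization, limma adjusted p = 0.0346). The counts of called genes follow the pseudocount and the fold threshold by construction. For Cre + NFIA against Cre at day 0 the 40 called higher became 98 at a pseudocount of 0.1 FPKM, 6 at 5, 22 at a mean of at least 5 FPKM, 136 at 2-fold, 1862 with no fold threshold and 110 with limma voom, and the 20 called lower became 55 and 6 at pseudocounts of 0.1 and 5, 108 at 2-fold, 1596 with no threshold and 61 with voom. Against Δpro#3 the 19 called higher became 64 and 4 at these pseudocounts, 9 at a mean of at least 5 FPKM, 96 at 2-fold and 693 with no threshold, and the 3 called lower 7 and 0 at these pseudocounts, 26 at 2-fold and 601 with no threshold (limma adjusted p alone, pseudocount 1). For the difference between days the 76 called higher became 46 at a pseudocount of 5, 189 with no filter on low values, 39 at a mean of at least 5, 395 at 2-fold and 1993 with no threshold, and the 135 called lower became 341 at a pseudocount of 0.1, 40 at 5, 728 at 2-fold and 3698 with no threshold. Of genes called higher at day 0, 42.5% (17 of 40) passed higher at day 7, or 66.7% (4 of 6) at a pseudocount of 5. Those that passed lower were 22.5% (9 of 40), or 40.9% (9 of 22) at a mean of at least 5 FPKM. With each library left out, called genes numbered 34 to 42 higher and 16 to 20 lower at day 0, 17 to 22 and 2 to 4 against Δpro#3, and 56 to 115 and 117 to 155 for the difference between days, where 115 came without Cre day 7 replicate 2. Genes that passed numbered 1430 to 1784 higher and 1314 to 1532 lower. Of genes called higher 43.9 to 50% passed higher, 14.7 to 21.95% passed lower and 19.0 to 23.5% were called higher at day 7, and of genes called lower 100% passed lower and 55 to 63.2% were called lower. Other scalings gave 50.5% (size factors) and 48.0% (quantile) of passing genes higher, against 53.8%. Same-numbered libraries of Cre and Cre + NFIA at day 0 did not deviate together (correlations -0.174, 0.0427 and -0.185). Those of Δpro#3 and Cre + NFIA had correlations of 0.118, 0.116 and 0.0661, against -0.102 to -0.00605 for unlike numbers. Whether libraries with the same number share a culture cannot be told from these values. A replicate block gave 40 called higher and 20 lower, and 1872 and 1600 passing. Depth limits low genes: below about 1 FPKM a change rests on few reads.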
